A study of Mus musculus with 24 samples.

Results

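The mitochondrial carriers and uncoupling proteins were taken as every gene whose name on the array starts with Slc25a, other than Slc25a20, together with Ucp1, Ucp2 and Ucp3. The array named 44 such genes with 53 probes, and 41 of them were measured, out of 28235 genes measured in all. A gene counted as measured when at least 1 of its probes was well above background, by the scanner software's own mark, on 6 or more of the 24 arrays, and the brightest such probe stood for the gene. Of the 41 genes, 34 were well above background on all 24 arrays. The 3 genes left out were Ucp1, which was above background on 2 arrays, and Slc25a2 and Slc25a21, each on 1 array. All 3 were near the detection limit, so that no change in them could be seen.

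RNA came from the left ventricle of 24 male mice, 6 in each of 4 groups, with 1 array per mouse. CON mice were controls, and mG4H mice carried a transgene for the glucose transporter GLUT4 that could be switched on in cardiomyocytes only. STZ mice had 55 mg/kg of streptozotocin, a toxin of insulin-producing beta cells, on each of 5 days, and VEH mice had citrate buffer. The transgene was induced 2 weeks after the injections, and hearts were taken after a further 2 weeks. Each genotype had both treatments, and the question was how the diabetic heart responds when more glucose can enter its muscle cells. Mouse ages, the promoter that drives the transgene and the inducing agent are not given in the sources used here. Some mice were siblings across groups, but the labels do not identify them. Blood glucose at 4 weeks, in a unit the labels do not give, was 117 to 164 in CON VEH, 131 to 152 in mG4H VEH, 600 to 601 in CON STZ and 500 to 601 in mG4H STZ.

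The carriers are a family of proteins in the inner mitochondrial membrane, most of which swap one metabolite for another between the cytosol and the matrix. In the heart the family brings ADP and phosphate in and ATP out, carries the malate and aspartate of the shuttle that moves reducing equivalents into the matrix, and delivers amino acids, nucleotides and cofactors. The uncoupling proteins belong to the same family. Ucp1 lets protons leak and makes heat in brown fat, whereas the roles of Ucp2 and Ucp3 in heart and skeletal muscle are tied to fatty acid use and are still debated.

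Values below are log2 processed signals, with 0 at the array's 75th percentile, which lay between 369.85 and 583.2 signal units. A difference of 1 is a change of 2-fold. Values of different genes come from different probes and are not set against each other. All 12 cardiomyocyte markers were measured, and their mean was 7.84 to 8.35 in every heart. In CON STZ their median difference from CON VEH was -0.11, and 1 of them, the creatine kinase gene Ckm, fell. Slides 1 to 3 held 2 mice of each of the 4 groups, with 2 exceptions. Slide 2 held 1 CON VEH mouse, and slide 3 held 1 mG4H VEH mouse. Slide 4, scanned on another day, held only 1 mouse each of CON VEH and mG4H VEH. A change given within a slide thus rests on 1 or 2 mice per group. The probe for Slc2a4, the GLUT4 gene, was lower in CON STZ than in CON VEH by 0.58 (limma, adjusted p = 0.0436). It differed between mG4H and CON by -0.20 under VEH and by 0.20 under STZ, and neither difference passed the test. Whether this probe reads the transgene is not given, so it does not check the labels.

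In CON hearts, STZ changed 7 of the 41 carriers (limma with Benjamini-Hochberg adjustment over all genes, adjusted p under 0.05). Ucp2, Ucp3 and Slc25a34 rose, and Slc25a29, Slc25a13, Slc25a38 and Slc25a35 fell. Both uncoupling proteins were over 3-fold higher, Ucp3 on its brighter probe, and the other 5 genes moved by 1.46-fold to 1.90-fold. On its second probe Ucp3 was 1.65-fold higher and did not pass. These 7 were 17.1% of the carriers, against 3.96% of all genes in the same comparison. Rising genes were 1.66% of all genes and falling genes 2.3%. The median carrier did not move, at 0.031 against 0.027 for all genes, and 21 of the 41 carriers differed by less than 0.25 either way. In these whole-tissue samples, fewer cells of a type and less RNA per cell cannot be told apart.

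Some markers of other cell types differed with STZ as well. In CON hearts the 8 fibroblast markers had a median STZ difference of 0.35, with 1, Mfap5, called higher, and their mean was 3.97 to 4.44 under VEH and 3.60 to 5.04 under STZ. In mG4H hearts their median difference was -0.03 and none passed. Of 4 atrial markers, Nppa, a natriuretic peptide gene that stressed ventricles also express, rose with STZ in both genotypes, and the other 3 did not pass. The mean of the 4 atrial markers was 3.61 and 4.00 in mG4H VEH replicates 5 and 6 and 3.25 in mG4H STZ replicate 4, and at most 2.10 in the other hearts. Without those 3 hearts, 6 of the 7 carriers kept their call in CON hearts, Slc25a35 lost it (limma, adjusted p = 0.0525), and no carrier passed in the other comparisons. That fit was added after the values were seen, and the part of these cell types in the carriers' values was not otherwise tested.

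**Figure D1:**
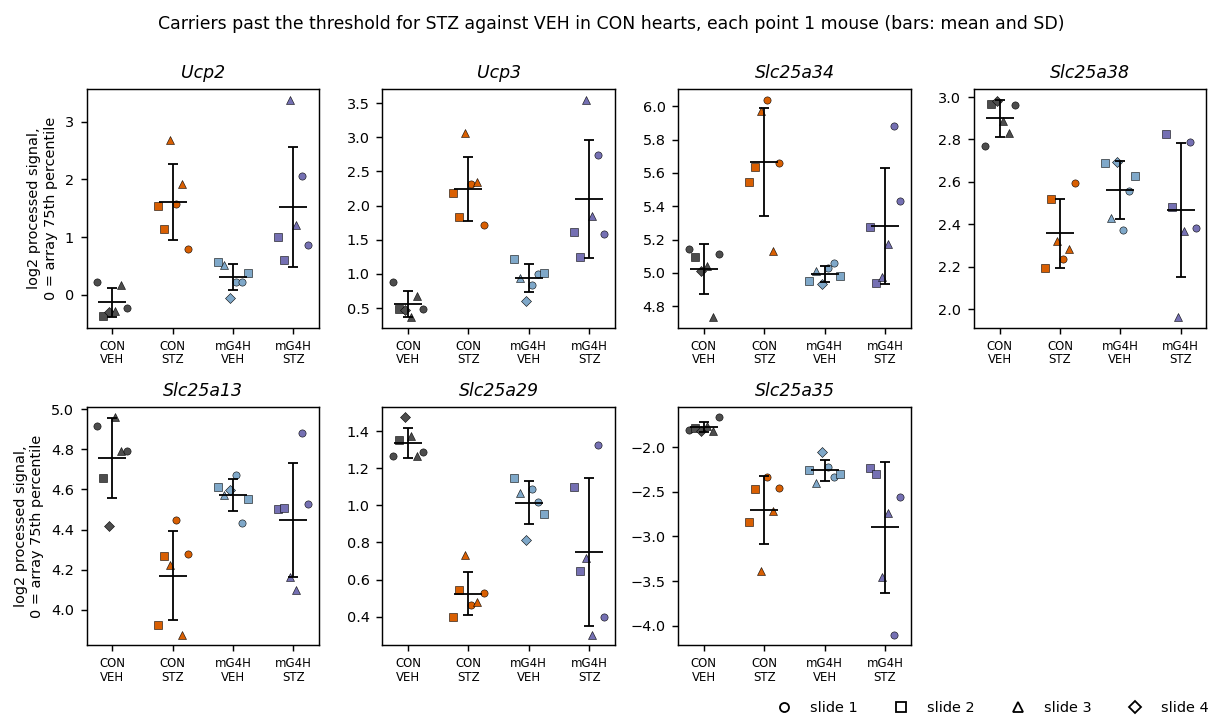
Log2 processed signal (vertical axis, 0 is the array's 75th percentile) of the 7 carriers past the threshold for STZ against VEH in CON hearts, for 6 mice in each of 4 groups (horizontal axis). Each point is 1 mouse, the symbol gives the slide, and the bars are the mean and SD; in CON hearts the STZ and VEH points are apart for Ucp2, Ucp3, Slc25a38, Slc25a29 and Slc25a35.

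No carrier passed the same test in the other comparisons. For STZ against VEH in mG4H hearts, 0.266% of all genes passed. At an unadjusted p under 0.05 there were 7 carriers (17.1%), near the 14.01% of all genes at that threshold. For mG4H against CON, 0.0815% of all genes passed under VEH and 0.0106% under STZ. At an unadjusted p under 0.05 there were 5 carriers under VEH (12.2%, against 2.87% of all genes) and 3 under STZ (7.32%, against 3.55%). For the difference between the STZ effects of the 2 genotypes, 0% of all genes passed, and 4 carriers had an unadjusted p under 0.05 (9.76%, against 1.77% of all genes). A carrier that changed in CON hearts is therefore not shown to have changed more there than in mG4H hearts. The CON change also enters the difference between the STZ effects. For carriers picked by their CON change, the unadjusted p of that difference is thus not separate evidence.

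**Figure D2:**
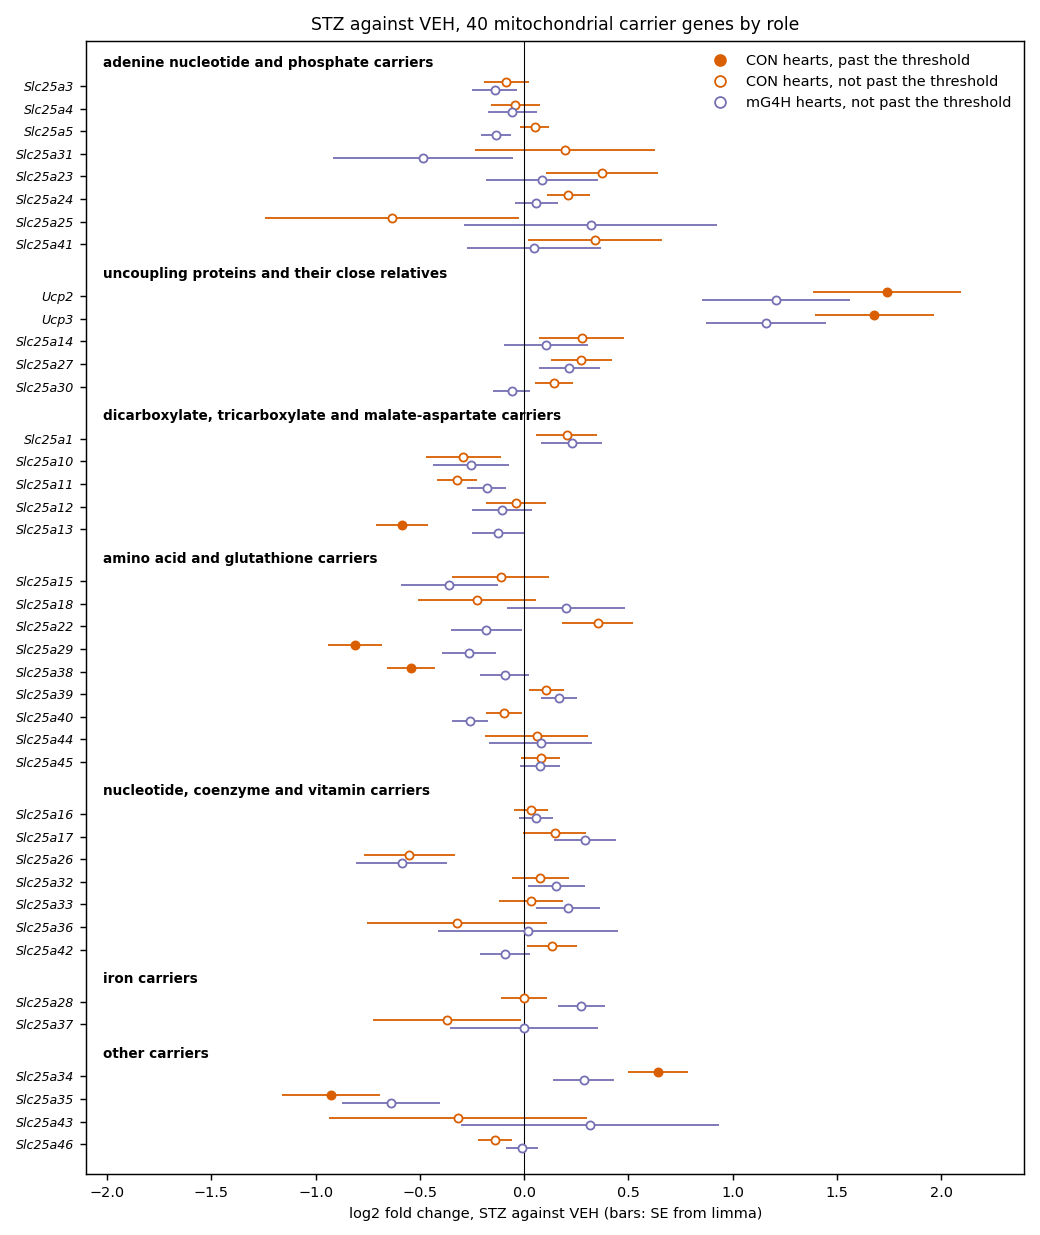
Log2 fold change of STZ against VEH (horizontal axis) for 40 carriers, grouped by role (vertical axis), in CON hearts (orange) and mG4H hearts (purple), with the SE from limma. Filled points passed the threshold; Ucp2 and Ucp3 lie farthest to the right in both genotypes, and most carriers of ATP and phosphate lie near 0.

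The uncoupling proteins and their close relatives had 5 measured members, of which Ucp2 and Ucp3 rose in CON STZ hearts and 3 did not pass. Ucp2 lay at -0.36, -0.26 and 0.22 (lowest, median and highest of 6 mice) in CON VEH and at 0.79, 1.56 and 2.68 in CON STZ. In mG4H hearts it lay at -0.05, 0.30 and 0.56 under VEH and at 0.60, 1.11 and 3.38 under STZ. Every STZ heart was above every VEH heart of its genotype. The change was 1.74 ± 0.35 (SE) in CON hearts, or 3.34-fold (limma, adjusted p = 0.00643), and 1.21 ± 0.35 in mG4H hearts (adjusted p = 0.135). The difference between these changes was -0.53, with a 95% interval of -1.57 to 0.51. Within slides 1, 2 and 3 the change was 1.18, 1.71 and 2.36 in CON hearts and 1.23, 0.33 and 1.78 in mG4H hearts, so it was smallest among the mG4H hearts of slide 2.

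Ucp3 was measured by 2 probes, and the brighter one gave 0.37, 0.49 and 0.89 in CON VEH and 1.72, 2.25 and 3.06 in CON STZ. It gave 0.60, 0.97 and 1.22 in mG4H VEH and 1.25, 1.73 and 3.54 in mG4H STZ. Here too no STZ heart overlapped with a VEH heart of its genotype. The change was 1.68 ± 0.29 in CON hearts, or 3.21-fold (limma, adjusted p = 0.00177), and 1.16 ± 0.29 in mG4H hearts (adjusted p = 0.0826). In mG4H hearts the highest STZ mouse for both genes was replicate 3. Without it the changes in mG4H hearts were 0.84 for Ucp2 (adjusted p = 0.280) and 0.87 for Ucp3 (adjusted p = 0.149). Without replicate 2 of the same group they passed the test, at 1.39 for Ucp2 (adjusted p = 0.0461) and 1.33 for Ucp3 (adjusted p = 0.0214).

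The second Ucp3 probe, which starts 3892 bases away on chromosome 7 (mm9), did not pass. Per the file headers' build, the brighter probe lies at chr7:107630399-107630458 and the second at chr7:107634291-107634350, and both are annotated to the same Ucp3 transcript. The second probe gave -0.55, 0.04 and 0.78 in CON VEH and 0.13, 0.71 and 1.73 in CON STZ, so the groups overlapped. Its change was 0.72 ± 0.34 in CON hearts (limma over all probes, adjusted p = 0.355) and 0.72 ± 0.34 in mG4H hearts (adjusted p = 0.360). Within slides 1, 2 and 3 its change in CON hearts was 1.32, -0.0035 and 0.39, against 1.33, 1.53 and 2.18 for the brighter probe. The 2 probes thus agreed on slide 1 and not on slides 2 and 3. With slide as a block the second probe's change in CON hearts was 0.64 ± 0.25 (adjusted p = 0.194). Which probe reads more of the Ucp3 message was not tested.

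Ucp2 and the brighter Ucp3 probe ranked the STZ mice alike. In CON STZ the order from highest to lowest was replicates 3, 5, 4, 1, 2, 6 for both genes, and in mG4H STZ it was 3, 5, 4, 1, 6, 2 for both. Pearson's r was 0.982 in CON STZ and 0.993 in mG4H STZ (exact permutation test over 720 orders, two-sided, adjusted p = 0.00278 over 4 groups for both), and Spearman's rho was 1 in each (adjusted p = 0.00556). Without the 2 mice farthest from the median of Ucp2, r was 0.907 and 0.985. In CON VEH r was 0.908 (adjusted p = 0.0259) and rho 0.771 (adjusted p = 0.103), and in mG4H VEH r was 0.865 (adjusted p = 0.0319) and rho 0.829 (adjusted p = 0.0778). In the VEH groups r fell to -0.10 and 0.23 without the 2 farthest mice, so it rests on those mice. This test was added after the values were seen.

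The second Ucp3 probe did not follow that order. Its Spearman's rho with Ucp2 was -0.829 in CON STZ and 0.0857 in mG4H STZ (exact permutation test, two-sided, adjusted p = 0.233 and 1 over 8 relations). With the brighter Ucp3 probe it was also -0.829 and 0.0857 (adjusted p = 0.233 and 1), and r was -0.606 (adjusted p = 0.644) and -0.0078 (adjusted p = 0.997). Pearson's r with Ucp2 was -0.734 (adjusted p = 0.644) and -0.113 (adjusted p = 0.997), and -0.322 and 0.415 without the 2 mice farthest from the median. The second probe's CON STZ values sorted by slide. They were 1.68 and 1.73 on slide 1, 0.67 and 0.75 on slide 2, and 0.13 and 0.19 on slide 3. Slide 3 held replicates 3 and 5, the 2 highest for Ucp2. The second probe's highest mG4H STZ values, 1.55 and 1.61, were the 2 on slide 1. The permutation tests took no account of slide, and the part of slide in these relations was not tested. The Ucp2 probe and the brighter Ucp3 probe share at most 5 bases in a row of their 60. In the RefSeq annotation of GRCm38.p6, Ucp3 and Ucp2 are neighbours on chromosome 7, with 0 genes between them.

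**Figure D3:**
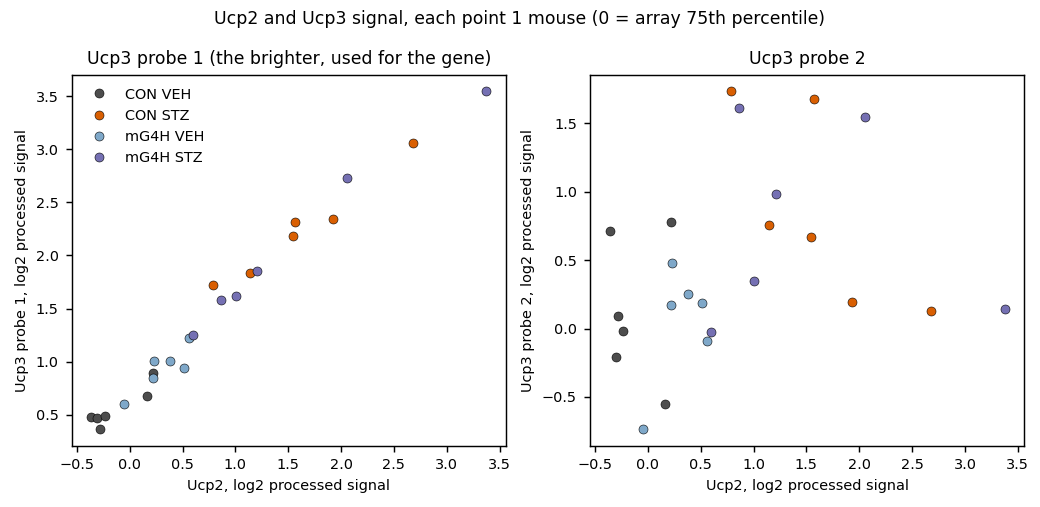
Ucp2 (horizontal axis) against the brighter Ucp3 probe (left, vertical axis) and the second Ucp3 probe (right, vertical axis), as log2 processed signal with 0 at the array's 75th percentile. Each point is 1 of 24 mice, coloured by group. On the left the STZ mice of both genotypes follow 1 line from lower left to upper right. On the right the 2 mice with the highest Ucp2 (2.68 and 3.38), both on slide 3, sit near the bottom of the STZ points.

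Ucp1, the uncoupling protein of brown fat, and Elovl3 were not measured, and the other 4 of 6 brown adipocyte markers were. The mean of the measured markers was -0.61 to -0.13 in CON VEH and -0.58 to 0.39 in CON STZ, and 1 of them, Cidea, rose in CON STZ. Of 12 macrophage markers, 1 rose in CON STZ, and their median STZ difference was 0.34 in CON hearts and 0.25 in mG4H hearts. Their mean was 0.35 to 0.57 in CON VEH and 0.39 to 1.27 in CON STZ. Macrophages also express Ucp2. The CON STZ mouse with the highest Ucp2, replicate 3, had the lowest macrophage mean of its group (0.39), while the mG4H STZ mouse with the highest Ucp2, replicate 3, had the highest of its group (1.40). Replicate 5, the next highest for Ucp2 in each of these groups, had a macrophage mean of 1.07 in CON STZ and 0.36 in mG4H STZ. The part of macrophages in the Ucp2 values was not tested.

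The 3 other members of the group are brain-type or kidney-type relatives of the uncoupling proteins. Slc25a14, Slc25a27 and Slc25a30 differed between CON STZ and CON VEH by 0.28 ± 0.20, 0.27 ± 0.15 and 0.14 ± 0.09, and none passed (adjusted p = 0.689, 0.442 and 0.567). The Slc25a14 value rested on 1 CON VEH heart at -0.80, with the next at 0.71. Without that heart the difference was 0.0032.

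Slc25a34, a carrier whose substrate in mammals is not settled, was the third member to rise. It lay at 4.73, 5.07 and 5.14 in CON VEH and at 5.13, 5.65 and 6.04 in CON STZ, so that the lowest STZ heart reached the VEH range. In mG4H hearts it lay at 4.93, 5.00 and 5.06 under VEH and at 4.94, 5.22 and 5.88 under STZ. The change was 0.64 ± 0.15 in CON hearts, or 1.56-fold (limma, adjusted p = 0.0136), and 0.29 ± 0.15 in mG4H hearts (adjusted p = 0.390). Within slides 1, 2 and 3 the CON change was 0.72, 0.50 and 0.66, close to the whole. Scaling each array to its median in place of its 75th percentile gave a change of 0.60 that did not pass (adjusted p = 0.776).

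The promoters of the 3 genes that rose are shown because PPARs and estrogen-related receptors, nuclear receptors known for driving fatty acid and mitochondrial genes in heart, bind around the half-site AGGTCA. The sequences are the 250 bases before the gene start, from RefSeq with the build GRCm38.p6, written 5′ to 3′ on the gene's strand. Capitals mark AGGTCA or its reverse complement. Ucp3 is at chr7:100472741-100472990 (+ strand), Ucp2 at chr7:100493108-100493357 (+ strand) and Slc25a34 at chr4:141623835-141624084 (- strand).
Ucp3: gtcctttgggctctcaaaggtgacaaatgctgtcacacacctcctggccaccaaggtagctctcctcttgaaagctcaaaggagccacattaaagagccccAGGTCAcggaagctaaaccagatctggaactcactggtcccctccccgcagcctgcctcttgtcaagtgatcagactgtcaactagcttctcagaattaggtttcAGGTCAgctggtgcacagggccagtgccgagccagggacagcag
Ucp2: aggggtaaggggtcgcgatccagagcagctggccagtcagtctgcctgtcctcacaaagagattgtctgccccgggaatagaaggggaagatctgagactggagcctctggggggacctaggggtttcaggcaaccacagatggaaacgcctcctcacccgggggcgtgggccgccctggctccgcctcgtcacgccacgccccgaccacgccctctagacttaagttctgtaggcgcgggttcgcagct
Slc25a34: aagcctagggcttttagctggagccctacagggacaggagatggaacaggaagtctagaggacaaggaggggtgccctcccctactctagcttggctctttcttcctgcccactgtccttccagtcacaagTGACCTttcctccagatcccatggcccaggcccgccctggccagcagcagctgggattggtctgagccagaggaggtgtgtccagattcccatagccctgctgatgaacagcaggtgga
The half-site was found 2 times before Ucp3, starting at -149 and -44, 1 time before Slc25a34, at -119, and not before Ucp2. Of all 32851 promoters of this length, 14.02% held AGGTCA on either strand. Of the 32 carriers with a promoter in the table, 4 held it, namely Slc25a34, Slc25a39, Slc25a45 and Ucp3. AGGTCANAGGTCA, the direct repeat with 1 base between, was in 0.0335% of promoters, and TCAAGGTCA, the estrogen-related receptor element, was in 0.387%. Both contain the half-site, and 0 carriers held either. The E-box CACGTG was in 6.02% of promoters and in 7 carriers, of which Slc25a13 was called. These are matches of letters and say nothing of binding.

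Among the dicarboxylate, tricarboxylate and malate-aspartate carriers, 1 of 5 measured members fell in CON STZ hearts and none rose. That gene was Slc25a13 (citrin, or Aralar2), an aspartate-glutamate exchanger of the malate-aspartate shuttle. It lay at 4.42, 4.79 and 4.96 in CON VEH and at 3.88, 4.24 and 4.45 in CON STZ. The highest STZ heart just passed the lowest VEH heart. In mG4H hearts it lay at 4.43, 4.59 and 4.67 under VEH and at 4.10, 4.51 and 4.88 under STZ, and the STZ range took in the VEH range. The change was -0.59 ± 0.12 in CON hearts, a 1.5-fold lower signal (limma, adjusted p = 0.00842), and -0.13 ± 0.12 in mG4H hearts (adjusted p = 0.749). The 2 changes differed by 0.46, with a 95% interval of 0.099 to 0.82 and an unadjusted p of 0.0150, which did not survive adjustment over all genes (adjusted p = 1). The CON change within slides 1, 2 and 3 was -0.49, -0.56 and -0.83. With median scaling it was -0.63 and did not pass (adjusted p = 0.621).

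Slc25a12 (Aralar1), the aspartate-glutamate exchanger that prevails in heart and muscle, did not pass for STZ. In CON hearts the STZ difference was -0.04 ± 0.14, with a 95% interval of -0.34 to 0.26. The CON STZ hearts lay at 4.94, 5.06 and 5.67, and so reached below and above the CON VEH range of 5.18 to 5.34. In mG4H hearts the STZ difference was -0.11 ± 0.14 (limma, adjusted p = 0.832). Under VEH, Slc25a12 lay at 5.18, 5.22 and 5.34 in CON hearts and at 5.34, 5.62 and 5.64 in mG4H hearts, so that the ranges met without overlap. The difference was 0.34 ± 0.14 (limma, adjusted p = 1). The lowest mG4H VEH heart was the one on slide 4, and within slides 1, 2 and 3 the difference was 0.32, 0.45 and 0.41.

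Slc25a11, the oxoglutarate-malate carrier and the other carrier of the shuttle, just missed the threshold. It lay at 7.59, 7.70 and 7.85 in CON VEH and at 7.09, 7.40 and 7.61 in CON STZ, with 1 STZ heart inside the VEH range and 5 below it. The difference was -0.32 ± 0.10 (limma, adjusted p = 0.0618). In mG4H hearts it was -0.18 ± 0.10 (adjusted p = 0.412). Within slides 1, 2 and 3 the CON difference was -0.12, -0.20 and -0.52. The dicarboxylate carrier Slc25a10 differed by -0.29 ± 0.18 (adjusted p = 0.564) and the citrate carrier Slc25a1 by 0.20 ± 0.15 (adjusted p = 0.684) in CON hearts.

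The carriers of ADP, ATP and phosphate, 8 of 8 measured, held 0 changed genes in every comparison. Slc25a4, the adenine nucleotide translocase of heart and muscle, lay at 9.04, 9.20 and 9.58 in CON VEH and at 8.94, 9.24 and 9.55 in CON STZ. The difference was -0.04 ± 0.12, with a 95% interval of -0.29 to 0.20. Slc25a3, the phosphate carrier, differed by -0.09 ± 0.11 on its brighter probe, with an interval of -0.31 to 0.14. A second Slc25a3 probe differed by -0.22 ± 0.14 (limma over all probes, adjusted p = 0.627). Slc25a5, the translocase form found in most tissues, differed by 0.05 ± 0.07, with an interval of -0.10 to 0.20. A change as large as that of Ucp2 or Ucp3 lies outside these intervals.

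**Figure D4:**
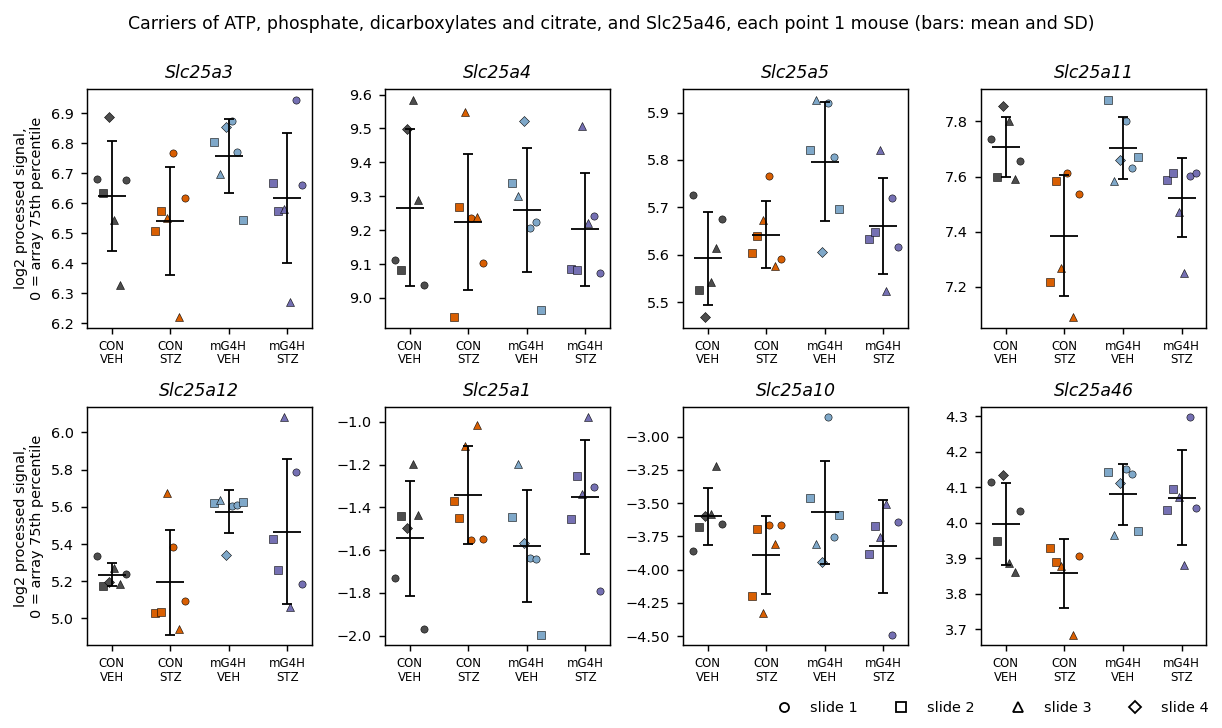
Log2 processed signal (vertical axis, 0 is the array's 75th percentile) of 8 carriers that did not pass the threshold for STZ in either genotype, for 6 mice in each of 4 groups (horizontal axis). Each point is 1 mouse, the symbol gives the slide, and the bars are the mean and SD; Slc25a3 and Slc25a4 overlap across all groups, and Slc25a12 is higher in mG4H VEH than in CON VEH. One CON STZ heart has no Slc25a46 value.

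In the fit of all 24 arrays, Slc25a5 was the carrier with the smallest p but one for mG4H against CON under VEH. It lay at 5.47, 5.58 and 5.73 in CON VEH and at 5.61, 5.81 and 5.93 in mG4H VEH. The difference was 0.20 ± 0.07, with an unadjusted p of 0.00876 and, by limma, an adjusted p of 0.868. The ATP-magnesium and phosphate carriers that calcium regulates, Slc25a23, Slc25a24 and Slc25a25, and the related Slc25a41 did not pass either. Slc25a41 was above background on only 8 of 24 arrays and Slc25a31, the testis form of the translocase, on 20. Slc25a25 differed by -0.63 ± 0.61 in CON hearts because of 1 CON STZ heart, replicate 4, at -4.65, while the other 5 were at 0.45 to 0.73. Without it the difference was 0.24 ± 0.15 (adjusted p = 0.558). The second Slc25a25 probe on that array read -0.98, within the range of its group (-1.18 to -0.68), and its difference over all hearts was 0.38 ± 0.14 (limma over all probes, adjusted p = 0.187).

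Of the 9 measured carriers of amino acids and glutathione, 2 fell in CON STZ hearts and none rose. Slc25a29, which carries arginine, lysine and ornithine, lay at 1.26, 1.32 and 1.47 in CON VEH and at 0.40, 0.50 and 0.73 in CON STZ. All 6 STZ hearts were below all 6 VEH hearts by a wide gap. The change was -0.81 ± 0.13, or 1.76-fold lower (limma, adjusted p = 0.00092), the smallest p of any carrier. Within slides 1, 2 and 3 it was -0.78, -0.88 and -0.72. It kept its size under median scaling, at -0.85, but not its call (adjusted p = 0.151).

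In mG4H hearts Slc25a29 lay at 0.81, 1.04 and 1.15 under VEH and at 0.30, 0.68 and 1.33 under STZ, and these overlapped. The difference was -0.27 ± 0.13 (limma, adjusted p = 0.360). The group means were 1.34 in CON VEH, 0.52 in CON STZ, 1.01 in mG4H VEH and 0.75 in mG4H STZ. The STZ changes of the genotypes differed by 0.55 ± 0.18, with an unadjusted p of 0.00645, the smallest of any carrier in that comparison, and an adjusted p of 1.

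Slc25a38, which brings glycine into mitochondria for haem synthesis, lay at 2.77, 2.92 and 2.98 in CON VEH and at 2.19, 2.30 and 2.60 in CON STZ, with no overlap. The change was -0.54 ± 0.12, or 1.46-fold lower (limma, adjusted p = 0.00952). Slide by slide (1, 2 and 3) it was -0.45, -0.61 and -0.56. Under median scaling the change of -0.58 did not pass (adjusted p = 0.624). The erythroid markers, of which 4 of 8 were measured, had a median STZ difference of -0.51 in CON hearts and -0.51 in mG4H hearts, and none passed. The part of blood in the Slc25a38 values was not tested. In mG4H hearts Slc25a38 lay at 2.37, 2.59 and 2.69 under VEH and at 1.96, 2.43 and 2.82 under STZ. There the difference was -0.09 ± 0.12 (adjusted p = 0.814), and the STZ mice reached above and below the VEH mice. The STZ changes differed by 0.45 ± 0.16, with an unadjusted p of 0.0123 and an adjusted p of 1.

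The other 7 of this group did not pass in CON hearts, with differences from -0.23 to 0.35. They were the ornithine carrier Slc25a15, the glutamate carriers Slc25a18 and Slc25a22, Slc25a39 and Slc25a40, which are tied to mitochondrial glutathione, Slc25a44, known for branched-chain amino acids, and Slc25a45. Slc25a40, chosen after its values were seen, lay at -0.36 to -0.02 in mG4H STZ and at -0.0020 to 0.18 in mG4H VEH. These did not overlap, and the difference was -0.26 ± 0.09 (limma, adjusted p = 0.171). Slc25a15 had 1 low CON STZ heart, replicate 4, at -5.73.

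Slc25a35, a second carrier without a settled substrate, fell in CON STZ hearts. It lay at -1.82, -1.79 and -1.66 in CON VEH and at -3.38, -2.59 and -2.34 in CON STZ, with no overlap. The change was -0.93 ± 0.24, or 1.90-fold lower (limma, adjusted p = 0.0272). In mG4H hearts it lay at -2.41, -2.27 and -2.05 under VEH and at -4.10, -2.65 and -2.23 under STZ, with overlap and a difference of -0.64 ± 0.24 (adjusted p = 0.211). The CON call was the least stable of the 7. It held in 17 of 24 fits that each left out 1 array, with adjusted p up to 0.0676, and was lost without slide 4 (adjusted p = 0.0602) and with median scaling, at -0.97 (adjusted p = 0.268). Taken within each slide, the CON change was -0.67, -0.87 and -1.27 on slides 1, 2 and 3. Slc25a34 and Slc25a35 moved in opposite directions in CON hearts, and their probes share at most 8 bases in a row. Slc25a43, likewise without a settled substrate, was above background on only 8 of 24 arrays and differed by -0.32 ± 0.62 in CON hearts (adjusted p = 0.972).

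The nucleotide, coenzyme and vitamin carriers, 8 of 8 measured, held no changed gene. Slc25a26, the carrier of S-adenosylmethionine, chosen after its values were seen, differed by -0.55 ± 0.22 in CON hearts (adjusted p = 0.200) and by -0.59 ± 0.22 in mG4H hearts (adjusted p = 0.215). On this probe the lowest hearts, at 1.81 in CON STZ and 1.59 in mG4H STZ, were replicate 3 of each group. These were the mice with the highest Ucp2. On a second, dimmer Slc25a26 probe, replicate 3 was again the lowest in mG4H STZ, at 1.20. In CON STZ the lowest on that probe was replicate 1, at 1.29, and replicate 3 read 1.40. The second probe differed by -0.35 ± 0.11 in CON hearts and by -0.37 ± 0.11 in mG4H hearts. Neither difference passed (limma over all probes).

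The group also holds Slc25a16 and Slc25a42, both tied to coenzyme A, the peroxisomal Slc25a17, the folate and FAD carrier Slc25a32, and the pyrimidine nucleotide carriers Slc25a33 and Slc25a36. Slc25a36 had 1 low CON STZ heart, replicate 4, at -3.91, with the next at -0.39. Without it, STZ and VEH differed in CON hearts by 0.30 ± 0.11 (limma, adjusted p = 0.162) in place of -0.32 ± 0.43. Thus the sign turned with 1 spot. That array also held the low Slc25a25 and Slc25a15 spots and a Slc25a46 spot that the software marked as an outlier, so that Slc25a46 has 5 values in CON STZ.

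Both iron carriers were measured and neither passed. Slc25a28 (mitoferrin 2) serves most tissues and Slc25a37 (mitoferrin 1) serves red cell precursors. Slc25a37 lay at 1.80 to 2.13 in CON VEH, 1.37 to 2.01 in CON STZ, 1.80 to 2.36 in mG4H VEH and 0.82 to 4.42 in mG4H STZ. The highest and lowest of the last group, replicates 2 and 3, also had the highest and lowest mean of the measured erythroid markers in that group, at 5.84 and 0.43, the other 4 being at 3.21 to 3.92. The erythroid mean was 3.30 to 4.05 in CON VEH, 2.17 to 3.67 in CON STZ and 3.43 to 4.26 in mG4H VEH, with medians of 3.69, 3.21 and 3.78. Slc25a37 differed between CON STZ and CON VEH by -0.37 ± 0.36 (limma, adjusted p = 0.838). A second, dimmer Slc25a37 probe was also highest in mG4H STZ replicate 2, at -2.93. It was not lowest in replicate 3, which read -3.67, but in replicate 5, at -4.00. The part of blood in the Slc25a37 values was not tested. Without replicate 2 the Slc25a37 difference in mG4H hearts was -0.47 ± 0.17 (limma, adjusted p = 0.130) in place of -0.00076.

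**Figure D5:**
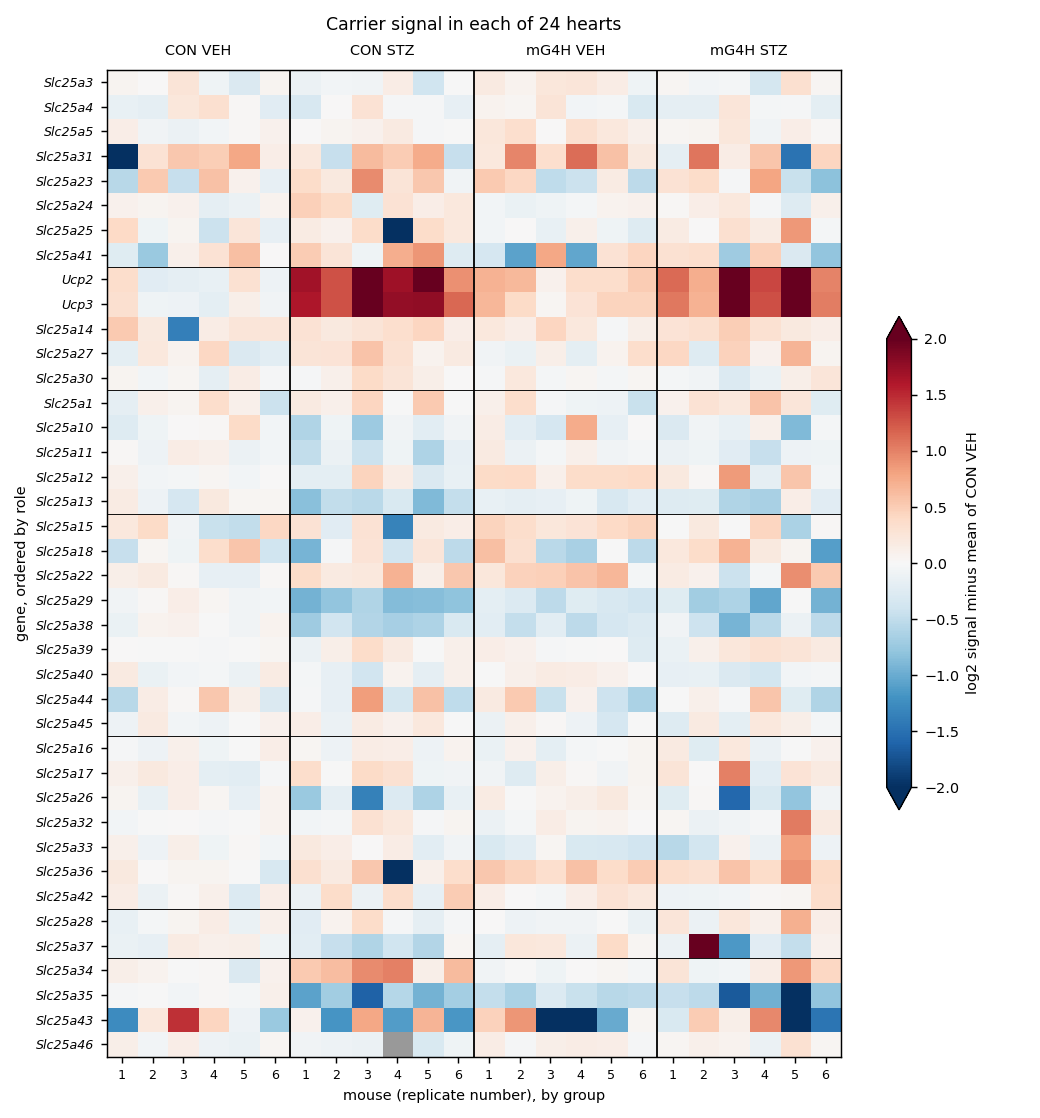
Log2 processed signal of 40 carriers (vertical axis, ordered by role) in each of 24 hearts (horizontal axis, by group and replicate), minus the mean of CON VEH; the colour scale stops at 2 either way and grey is a missing value. Ucp2 and Ucp3 are red in the STZ hearts of both genotypes, Slc25a29, Slc25a38 and Slc25a35 are blue in all CON STZ hearts, and single dark cells mark the hearts named in the text for Slc25a25, Slc25a36 and Slc25a37.

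Ranges that do not overlap were counted as a second description. STZ and VEH did not overlap for 5 carriers in CON hearts, where 4.59% of all genes did not, and for 4 carriers in mG4H hearts, where 1.67% did not. The 5 were Ucp2 and Ucp3 (higher) and Slc25a29, Slc25a35 and Slc25a38 (lower), and the 4 include Ucp2 and Ucp3 (higher) and Slc25a40 (lower). These comparisons share no mice. Between mG4H and CON, 5 carriers did not overlap under VEH, against 1.02% of all genes, and 0 under STZ, against 0.216%.

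The 5 under VEH were Slc25a12 and Slc25a36 (higher in mG4H) and Slc25a29, Slc25a35 and Slc25a38 (lower in mG4H). Under VEH, mG4H hearts differed from CON hearts by -0.32 ± 0.13 for Slc25a29, by -0.49 ± 0.24 for Slc25a35 and by -0.34 ± 0.12 for Slc25a38. None of these passed (limma, adjusted p = 1, 1 and 0.843). Within slides 1, 2 and 3 the values were -0.22, -0.30 and -0.26 for Slc25a29, -0.54, -0.49 and -0.62 for Slc25a35, and -0.40, -0.31 and -0.43 for Slc25a38. They use the same CON VEH mice as the STZ comparison in CON hearts, so the lower values in mG4H VEH and in CON STZ are not separate evidence. Slc25a36 was higher in mG4H VEH than in CON VEH by 0.46 ± 0.43, with an SE that takes in the spread of all 4 groups. Without CON STZ replicate 4, its low heart, the difference was 0.46 ± 0.11 (limma, adjusted p = 0.143). Within slides 1, 2 and 3 it was 0.54, 0.51 and 0.41. Under STZ the smallest unadjusted p among carriers, by limma, was 0.0139, for Slc25a46, an outer membrane relative tied to mitochondrial shape. It differed by 0.21 ± 0.08 (adjusted p = 1), with 5 CON STZ hearts. A second Slc25a46 probe differed by 0.094 ± 0.096 and did not pass.

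Body weight differed between the groups as well, at 27.9 to 36.4 in CON VEH and 21.8 to 27.8 in CON STZ, in a unit the labels do not give. In mG4H mice it was 25.5 to 31.2 under VEH and 21.1 to 28.1 under STZ. With body weight as a covariate, only Slc25a29 of the 7 kept its call. In that fit Ucp2 differed by 1.15 (limma, adjusted p = 0.406) and Ucp3 by 1.18 (adjusted p = 0.160) in CON hearts. Slc25a13, Slc25a38 and Slc25a35 also differed by less than without the covariate, at -0.41, -0.42 and -0.66 (adjusted p = 0.422, 0.360 and 0.690). Slc25a34 lost its call with a change no smaller than before, at 0.69 (adjusted p = 0.137), and Slc25a29 was at -0.95 (adjusted p = 0.00775). The weight ranges of CON VEH and CON STZ do not overlap, whereas those of the mG4H groups do, so weight and treatment cannot be told apart within CON mice.

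Of 31 other mitochondrial transport genes measured, 1 rose and 3 fell in CON STZ hearts, where 1.66% of all genes rose and 2.3% fell. None passed in the other comparisons, in which 0.266% of all genes or fewer passed. Sfxn3, of the sideroflexin family, rose by 0.34 ± 0.09 (limma, adjusted p = 0.0416). Abcb6, a porphyrin transporter, fell by 0.48 (adjusted p = 0.0148), Letm1, an ion exchanger of the inner membrane, by 0.41 (adjusted p = 0.0229), and Ccdc51, a part of the mitochondrial potassium channel, by 0.35 (adjusted p = 0.0270). The subunits of the pyruvate carrier, named Brp44l and Brp44 on the array, differed by -0.23 ± 0.10 and -0.22 ± 0.10 (adjusted p = 0.265 and 0.274). Another 3 carriers listed under older names, which the rule leaves out, were measured as well, namely AI132487 (Slc25a47), Mcart1 (Slc25a51) and Mcart6 (Slc25a53), and none passed. The excluded Slc25a20, the acylcarnitine carrier, differed by 0.57 ± 0.18 in CON hearts (adjusted p = 0.0892).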

How the data were processed

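Per the labels, Cy3-labelled cRNA of 24 left ventricles was hybridised to 1-colour Agilent arrays. The deposited files hold spot intensity; per the file headers (Agilent Feature Extraction 10.5.1.1, probes on mm9), the processed intensity is background-subtracted and not scaled between arrays. The submitters' processing notes also name limma. Each log2 value was the log2 of the deposited processed intensity minus the log2 of that array's 75th percentile over gene spots. Outlier spots were left out and repeated spots averaged. Between 58.5% and 76.3% of spots were well above background, and the number of arrays limits the precision.

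All 28235 genes were fitted over all 24 arrays with limma 3.58.1 (R 4.3.3), a mean per group and no covariate, in 5 contrasts, two-sided, with Benjamini-Hochberg adjustment over all genes and a threshold of 0.05. SE and 95% intervals are limma's. An adjusted p printed as 1 is rounded. The fit was tested on simulated data. Alternatives were other scaling, background correction, filters, probes, covariates and blocks, and leaving out each array. Promoters were matched by symbol for 32 of the 41 carriers. Exact tests and plots used Python 3.11.15 (numpy 2.4.6, matplotlib 3.10.9).

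The members, roles, lists and rules were chosen with earlier results of these data known. The rule named every carrier past the threshold, the uncoupling proteins, 8 core carriers, and the 3 smallest p where fewer than 3 passed. Other carriers named with values were chosen after their values were seen. Of the carriers the rule names, 1 is not reported here.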

Additional observations from a re-analysis of the deposited data

Results flagged for a closer look

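In 13 of 164 groups, 163 of 6 mice and 1 of 5, 1 heart lay apart from the others. The gap to the nearest heart, as a share of the group's whole range, was above Dixon's 95% critical value for a group of that size. Chance flags about 1 in 20 groups. Only Slc25a34 was among the 7 carriers that changed in CON hearts.

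CON STZ replicate 4 accounted for 3 of these: it was the lowest for Slc25a25 (gap 0.947), Slc25a36 (gap 0.888) and Slc25a15 (gap 0.681). Both hearts on slide 4 were the lowest of their group once, CON VEH replicate 3 for Slc25a14 (gap 0.796) and mG4H VEH replicate 3 for Slc25a12 (gap 0.879). CON VEH replicate 1 was the lowest for Slc25a31 (gap 0.784), and CON VEH replicate 5 for Slc25a34 (gap 0.679). Without the latter, the rise of Slc25a34 in CON STZ was 0.58 (limma, adjusted p = 0.0374).

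In mG4H STZ, replicate 2 was the highest for Slc25a37 (gap 0.655), replicate 5 for Slc25a32 (gap 0.738) and replicate 6 for Slc25a42 (gap 0.673), while replicate 6 was the lowest for Slc25a18 (gap 0.642). In mG4H VEH, replicate 2 was the highest for Slc25a30 (gap 0.667). None of these genes passed the test in any comparison, with or without the heart in question for Slc25a37, Slc25a32, Slc25a42 and Slc25a30.

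The group of 5 was Slc25a46 in CON STZ, where replicate 5 was the lowest (gap 0.798). Without it Slc25a46 differed between mG4H and CON under STZ by 0.17 in place of 0.21, and it passed in no comparison either way.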

How the results depend on the processing

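The 7 calls in CON hearts became 2 with median scaling in place of the 75th percentile (75 genes called in all, against 1117; the 5 lost carriers had changes from -0.97 to 0.60, against -0.93 to 0.64) and 1 with body weight as a covariate, and no called carrier reversed its direction under the alternatives run. The fit of only the 2 groups compared called 1 carrier for mG4H against CON under VEH (Slc25a35, adjusted p = 0.00905), array weights called 1 there (Slc25a12, adjusted p = 0.0396), and a trended robust prior called 1 for STZ in mG4H hearts (Ucp3, adjusted p = 0.0457). Leaving out each array in turn gave 6 to 8 calls in CON hearts, 0 to 3 for STZ in mG4H hearts (3 without mG4H STZ replicate 2) and 0 to 0 in the other 3 comparisons. Ucp2, Ucp3, Slc25a13, Slc25a29, Slc25a34 and Slc25a38 were called in 24 of 24 such fits. The Ucp3 call was lost with its second probe in place of the brighter one (limma over all probes, adjusted p = 0.355). Slc25a11 passed with normexp background correction (adjusted p = 0.0371), with genes above background on all 24 arrays (adjusted p = 0.0430), with slide as a block (adjusted p = 0.0409), with the trended prior (adjusted p = 0.0314) and in 4 of 24 fits with an array left out. With the replicate block the counts were 7 and, in the other 4 comparisons, 0. Whether replicate numbers pair the mice is not given. Deviations of same-numbered mice correlated between -0.60 and 0.66 (median 0.0036), and those of other pairs between -0.73 and 0.79 (median -0.021). These correlations cannot show whether any single pair were siblings. Over 3231 values of the named carriers under these settings, 21 lost and 15 gained the call, 3018 kept their call or were uncalled and near the main value, and 177 moved without a change of call; of the 177, 150 changed sign and 27 moved by more than 1 SD. Of all these values 192, those within single slides, had no test. Why these calls moved was not tested. Dim genes such as Slc25a41 and Slc25a43, above background on 8 arrays each, limit what could be seen.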

Other observations

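In mG4H STZ the 3 mice with a blood glucose of 601, replicates 3, 4 and 5, had Ucp2 signals of 3.38, 1.21 and 2.05, and the 3 mice at 500 to 516, replicates 1, 2 and 6, had 1.0045, 0.60 and 0.86. In CON STZ all 6 mice were at 600 or 601, and Ucp2 ranged from 0.79 to 2.68. The highest reading in both STZ groups was 601, and whether higher glucose could be read is not given. Mice at 601 may therefore differ in glucose. In mG4H STZ, slide 2 held only replicates 1 and 2 of this group, and slide 3 only replicates 3 and 4. Glucose and slide therefore cannot be told apart among these 4 mice. On slide 1 the mouse at 601, replicate 5, read 2.05 and the mouse at 500, replicate 6, read 0.86. Glucose and Ucp2 values were set side by side after they were seen, and no test was made.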
